A study of Mus musculus with 8 samples.

Results

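The genes described here are Ctla4, the inhibitory receptor of regulatory T (Treg) cells, and 9 genes listed for transport of the receptor to and from the cell surface. These 9 are Trat1, Lax1, Sit1, Lrba, Ap1m1, Ap2m1, Rab8a, Rab11a and Eea1. A part in CTLA-4 transport was not tested here for any of these 9. Ctla4 and these genes were taken by name from a list drawn up with earlier results of these data known. Together they make up 10 of the 22180 genes measured. Gene expression was profiled on 8 Affymetrix arrays in Treg cells of C57Bl/6J mice that lacked the microRNA cluster miR-181a/b-1 on both alleles (KO) or on 1 allele only (HET), so that HET served as the control and a wild type was not analysed here. All mice carried a GFP reporter expressed from the Foxp3 locus, and cells were sorted as CD4+CD25+Foxp3(GFP)+ to a purity of 98%. There were 2 arrays each for thymus KO, thymus HET, spleen KO and spleen HET cells. Thymus and spleen arrays of 1 genotype and number came from the same pool of mice, with 2 female mice and 1 male mouse in pools KO1 and KO2, 3 female mice and 1 male mouse in HET1, and 4 female mice and 1 male mouse in HET2. The labels give no age. The study's methods state an age range in weeks for all its mice, without the age of each pool. The study's legend gives other pool sizes than the labels, which were followed here.

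CTLA-4 binds CD80 and CD86, the ligands that it shares with the costimulatory receptor CD28, and can pull them off antigen-presenting cells. Most of the receptor is held inside the cell. Newly made CTLA-4 leaves the trans-Golgi with the help of the transmembrane adaptors TRIM (encoded by Trat1) and LAX (Lax1) and the small GTPase Rab8, clathrin adaptors sort it for internalisation or for degradation in lysosomes, and LRBA protects the internalised receptor from degradation so that it can recycle. Levels of mRNA, which are all that these arrays measured, therefore capture 1 layer of how much receptor a Treg cell displays.

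The deleted cluster encodes miR-181a and miR-181b. Their mature 5p sequences from RefSeq (GRCm38.p6) are shown as products of that cluster. Whether KO cells lack these mature sequences altogether was not measured here. Capitals mark the seed, bases 2 to 8 counted from the 5′ end, which is ACAUUCA in both. The sites lie at chr1:137966468-137966490 and chr1:137966650-137966673, both on the plus strand.
mmu-miR-181a-5p: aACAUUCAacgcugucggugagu
mmu-miR-181b-5p: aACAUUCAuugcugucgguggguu
The probe sets for the precursors of this cluster lay below background in all 4 groups (group means between 2.11 and 3.01 log2), so that the arrays gave no readout of the deletion itself.

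Upstream sequence is shown for Ctla4 and for Trat1, Lax1 and Lrba, the 3 members that were lower in thymus than in spleen. Each is the 250 bases before the RefSeq transcript start, written 5′ to 3′ along the gene, with the letters GGAAA, the core of the sites bound by NFAT factors, in capitals wherever they occur on either strand. These regions are chr1:60908775-60909024 (plus strand) for Ctla4, chr16:48772063-48772312 (minus) for Trat1, chr1:133690109-133690358 (minus) for Lax1 and chr3:86224440-86224689 (plus) for Lrba. Those of Trat1, Lax1 and Lrba lie inside the RefSeq loci given for these genes, which reach further upstream, and other starts were not examined.
Ctla4: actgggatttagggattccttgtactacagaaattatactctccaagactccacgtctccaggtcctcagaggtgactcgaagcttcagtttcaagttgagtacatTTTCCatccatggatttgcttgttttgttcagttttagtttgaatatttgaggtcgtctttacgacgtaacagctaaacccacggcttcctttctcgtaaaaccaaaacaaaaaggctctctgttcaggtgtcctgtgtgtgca
Trat1: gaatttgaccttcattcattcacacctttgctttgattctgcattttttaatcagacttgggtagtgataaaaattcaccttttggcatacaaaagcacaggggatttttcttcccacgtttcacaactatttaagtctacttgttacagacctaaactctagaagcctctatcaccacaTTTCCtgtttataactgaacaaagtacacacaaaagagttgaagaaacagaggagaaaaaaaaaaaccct
Lax1: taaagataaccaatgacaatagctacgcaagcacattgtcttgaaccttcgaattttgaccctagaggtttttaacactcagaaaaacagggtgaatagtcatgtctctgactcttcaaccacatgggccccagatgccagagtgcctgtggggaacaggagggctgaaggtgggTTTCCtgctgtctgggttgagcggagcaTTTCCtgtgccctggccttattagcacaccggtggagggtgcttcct
Lrba: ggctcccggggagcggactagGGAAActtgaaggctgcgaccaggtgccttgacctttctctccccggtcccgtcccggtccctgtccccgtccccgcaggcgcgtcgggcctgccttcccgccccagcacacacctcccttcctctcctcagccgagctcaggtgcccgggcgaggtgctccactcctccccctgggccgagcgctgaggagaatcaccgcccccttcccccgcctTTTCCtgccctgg
GGAAA or its reverse complement was found in 7 of the 9 members with an entry, against 55.6% of the 27025 genes with an upstream sequence. TGTGGT, the core recognised by Runx factors, was found in 4 of 9 (Trat1, Lax1, Rab8a and Rab11a), against 14.2% of all. CCGGAA, an ETS core, was found in 3 of 9 (Sit1, Rab8a and Rab11a; 12.2% of all), TATAAA in 1 of 9 (Trat1; 13% of all) and TGANTCA, the AP-1 site, in 0 of 9 (6.87% of all). The GGAAA and CCGGAA searches can share bases where a site reads CCGGAAA. CpG pairs numbered 7 in the 250 bases of Ctla4, 1 in Trat1, 4 in Lax1 and 7 in Sit1, against 19 in Lrba, 18 in Ap2m1, 18 in Rab8a, 10 in Rab11a and 19 in Eea1, with a median of 6 over all genes. These are counts of letters and say nothing of binding. Ap1m1 was not analysed here for its upstream sequence.

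Levels are log2 intensities throughout. Arrays had medians between 4.58 and 4.70. Background was taken as 4.63, the 95th percentile of 1105 olfactory receptor genes, and every member lay above it on each array. Foxp3, the lineage factor, lay between 10.79 and 11.24 and Il2ra, which encodes the sorting marker CD25, between 10.99 and 11.20 on all 8 arrays. Treg identity genes were not all level between the organs. Averaged over genotypes, 2 of the 7 listed were called higher in thymus by limma and 0 lower, with 4 differences positive and 3 negative. Ikzf4 had the smallest p (adjusted p = 0.000816), with means of 9.25 (KO) and 9.28 (HET) in thymus, against 8.44 and 8.68 in spleen. The HET libraries went against their labels in their sex-linked transcripts. Xist, the RNA of the inactive X chromosome, was at 9.40 and 8.80 in thymus KO cells, against 3.90 and 4.40 in thymus HET cells, and at 8.93 and 9.05 in spleen KO cells, against 3.89 and 3.58 in spleen HET cells, although the HET pools are labelled as mostly female. Means of the 3 measured Y-linked genes were higher in HET than in KO cells in both organs, though none of the 3 was called. Kdm5d was at 7.42 against 7.12 in thymus and 7.76 against 7.16 in spleen, HET before KO. Uty was at 7.12 against 6.52 and 7.26 against 6.95, and Eif2s3y at 7.57 against 7.10 and 8.06 against 7.51. Sex and genotype cannot be told apart in the comparisons of KO with HET, and without the HET libraries no such comparison can be made. None of the 10 members is X- or Y-linked. The comparison of thymus with spleen within KO uses none of the HET libraries for its means.

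**Figure D1:**
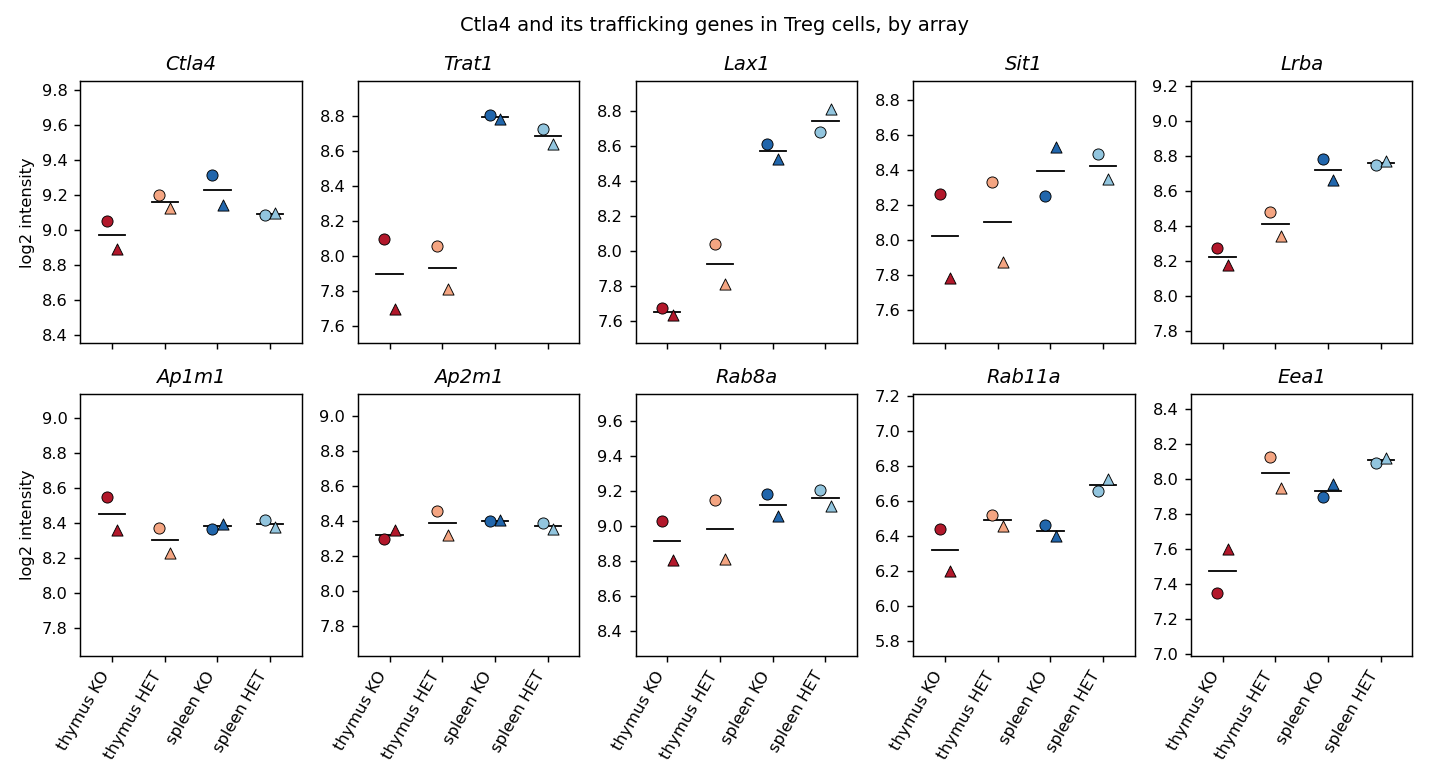
Log2 intensity (y axis, each panel spanning 1.5 units) of the 10 genes on each of the 8 arrays. Circles are pools numbered 1 and triangles pools numbered 2, and bars are means of 2 arrays. Trat1, Lax1 and Lrba had all 4 thymus arrays below all 4 spleen arrays.

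Ctla4 (chr1:60909025-60915832) passed the threshold in none of the comparisons of genotype or organ. It measured 9.05 and 8.89 in thymus KO cells and 9.20 and 9.13 in thymus HET cells, and 9.31 and 9.14 in spleen KO cells and 9.09 and 9.10 in spleen HET cells. All 8 arrays spanned 0.42, while arrays of 1 group differed by up to 0.17. The KO arrays lay below the HET arrays in thymus and above them in spleen, in each case without overlap. Throughout, overlap or its absence describes the few arrays of these groups only. The share of all genes whose arrays separate in the same way is not given here, so non-overlap is not read as a result. KO minus HET was -0.19 in thymus (CI -0.47 to 0.09), 0.14 in spleen (CI -0.14 to 0.41) and -0.03 averaged over tissues (CI -0.23 to 0.17), where CI is the 95% confidence interval of the log2 difference. The interaction, which is the spleen difference minus the thymus difference, was 0.33 (CI -0.07 to 0.72; adjusted p = 1.00). As a fold, the interval for Ctla4 in KO over HET ran between 0.905 and 1.33 in spleen and between 0.721 and 1.06 in thymus, so that a change larger than 1.33-fold upwards lies outside both intervals. In order, the group means ran spleen KO, thymus HET, spleen HET and thymus KO, of which only the first pair of neighbours overlapped. No direction is claimed for any of these differences.

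None of the 10 genes passed the threshold (adjusted p under 0.05 by limma over all genes) between KO and HET. The background was 0.00451% of genes called in spleen, 0.00451% in thymus, 0.0225% averaged over tissues and 0% for the interaction, so few calls were available to any gene list. The only gene called was Xist in spleen (adjusted p = 3.68e-07 by limma) and again Xist in thymus (7.25e-07). At an unadjusted p under 0.05 there were 0 members in spleen, 1 in thymus, 3 averaged over tissues and 0 for the interaction, against 4%, 5.52%, 5.53% and 3.67% of all genes. The median of the members was -0.12 in thymus, -0.03 in spleen and -0.05 for the average, beside medians of 0.00 for all genes. That of the 7 Treg identity genes was -0.12 in thymus, where all 7 were negative, 0.10 in spleen and -0.06 for the average. The 67 other transport genes described below had a median of -0.02 in thymus. Over the 10 genes the intervals reached at most -0.54 and 0.45 in spleen and -0.86 and 0.43 in thymus, and none of them reached a 2-fold change. Since the arrays carry RNA of whole sorted populations, fewer cells of a type and less RNA per cell cannot be told apart.

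Eea1 (chr10:95940663-96045518), the tether of early endosomes through which internalised receptors pass, had the most negative difference of the list between KO and HET cells in thymus and in the average, but not in spleen, where that of Rab11a was -0.26 (CI -0.54 to 0.02; adjusted p = 1.00). It measured 7.35 and 7.60 in thymus KO cells, against 8.13 and 7.95 in thymus HET cells. In spleen KO cells it measured 7.90 and 7.97, against 8.10 and 8.12 in spleen HET cells. The KO arrays lay below the HET arrays in both organs without overlap. KO minus HET was -0.56 in thymus (CI -0.86 to -0.27; adjusted p = 0.444), -0.17 in spleen (CI -0.47 to 0.12; adjusted p = 1.00) and -0.37 averaged over tissues (CI -0.58 to -0.16; adjusted p = 0.446), none of which passed. By its p-value Eea1 ranked 66 of all genes in thymus, 4194 in spleen and 115 averaged over tissues. The difference between the organs was not resolved either, with an interaction of 0.39 (CI -0.02 to 0.81; adjusted p = 1.00).

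Rab11a (chr9:64715300-64737756), a GTPase of recycling endosomes, measured 6.44 and 6.20 in thymus KO cells, against 6.52 and 6.46 in thymus HET cells, and 6.46 and 6.40 in spleen KO cells, against 6.66 and 6.72 in spleen HET cells. The genotypes did not overlap in either organ. Its averaged difference was -0.22 (CI -0.42 to -0.02; adjusted p = 0.857), which did not pass. Lax1 had a difference of the same size, -0.22 (CI -0.43 to -0.02; adjusted p = 0.833). Lrba averaged -0.11 (CI -0.31 to 0.08) and Trat1 0.04 (CI -0.20 to 0.27).

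**Figure D2:**
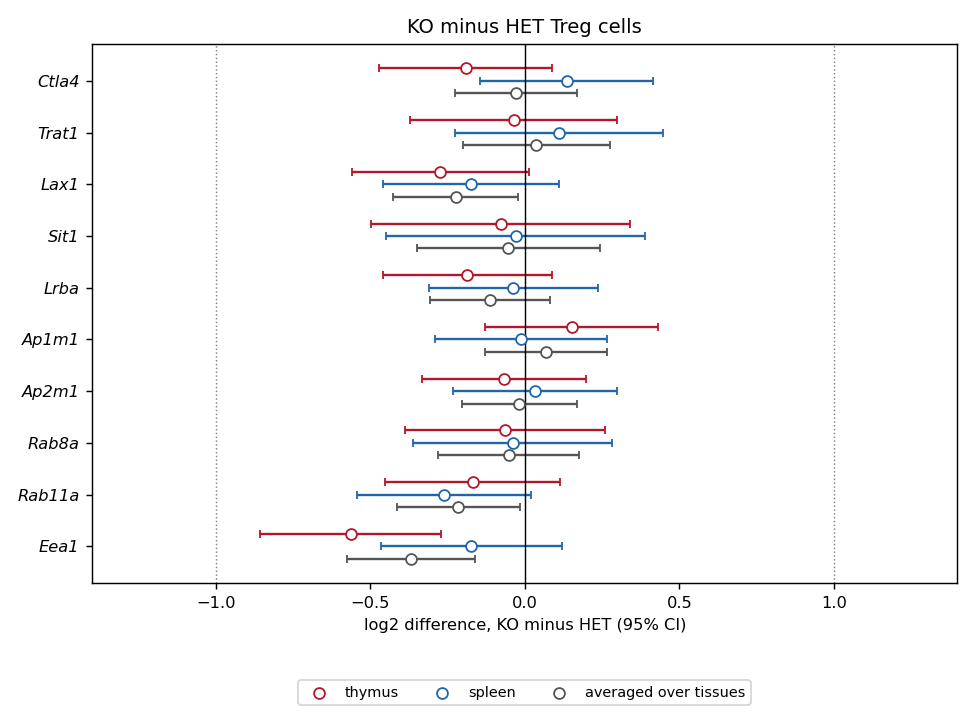
Log2 difference of KO minus HET (x axis) for the 10 genes, with 95% confidence intervals, in thymus, in spleen and in the average of the organs. Open points did not pass the threshold, which is every point here, and the dotted lines mark a 2-fold change. The point for Eea1 in thymus lies lowest, at -0.56.

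Between the organs some members passed. Of the 10 genes, 3 were lower in thymic than in splenic Treg cells when both genotypes were averaged, and 0 were higher. These were Lax1 and Trat1, the transmembrane adaptors that accompany CTLA-4 out of the Golgi, and Lrba, which keeps the receptor out of lysosomes. Across all genes 5.43% were called in this contrast, 3.17% as lower and 2.26% as higher in thymus. These shares include genes below background, whereas every member lay above it. With only the 12094 genes above background in the fit, 34.5% of calls were higher in thymus, in place of 41.6%. The median of the 10 members was -0.23, beside 0.02 for all genes.

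Lax1 (RefSeq chr1:133679017-133693022), which encodes the transmembrane adaptor LAX, measured 7.67 and 7.63 in thymus KO cells and 8.04 and 7.81 in thymus HET cells. The splenic arrays gave 8.61 and 8.53 in KO cells and 8.68 and 8.81 in HET cells. Every thymus array lay below every spleen array, and all 4 groups stood apart from their neighbours. Thymus minus spleen was -0.87 averaged over genotypes (CI -1.07 to -0.67; adjusted p = 0.000245), which puts the thymic level at 54.8% of the splenic one. It was -0.92 in KO cells (CI -1.20 to -0.63; adjusted p = 0.00483) and -0.82 in HET cells (CI -1.10 to -0.53; adjusted p = 0.0105).

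Trat1 (chr16:48730774-48810547), whose product TRIM associates with the T cell receptor as well as with CTLA-4, showed a like pattern. It measured 8.10 and 7.70 in thymus KO cells and 8.05 and 7.81 in thymus HET cells, and 8.80 and 8.78 in spleen KO cells and 8.73 and 8.64 in spleen HET cells. The organs did not overlap, while the thymus genotypes did. Thymus minus spleen was -0.82 averaged over genotypes (CI -1.06 to -0.59; adjusted p = 0.00106), -0.90 in KO cells (CI -1.23 to -0.56; adjusted p = 0.0132) and -0.75 in HET cells (CI -1.09 to -0.41; adjusted p = 0.0408). The averaged thymic level was 56.5% of the splenic one.

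Lrba (chr3:86223456-86782694), a large BEACH-domain protein, measured 8.27 and 8.17 in thymus KO cells, 8.48 and 8.34 in thymus HET cells, 8.78 and 8.66 in spleen KO cells and 8.75 and 8.77 in spleen HET cells. All thymus arrays again lay below all spleen arrays. The averaged difference was -0.42 (CI -0.62 to -0.23; adjusted p = 0.0177), or 74.6% of the splenic level. Within 1 genotype it did not pass, at -0.50 in KO cells (CI -0.77 to -0.22; adjusted p = 0.0742) and -0.35 in HET cells (CI -0.62 to -0.07; adjusted p = 0.287). The averaged call was lost when thymus KO 2, thymus HET 2, spleen KO 1, spleen HET 1 or spleen HET 2 was left out (adjusted p between 0.0561 and 0.0813), and with spleen KO 2 left out it stood at 0.0477.

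Within a genotype, 2 of 10 members were lower in thymus in KO cells and the same 2 in HET cells, namely Lax1 and Trat1, and 0 were higher. Over all genes 1.72% were called in KO cells (0.974% lower and 0.744% higher in thymus) and 1.2% in HET cells (0.582% lower and 0.618% higher). These shares too include genes below background. In KO cells 381 of the 22180 genes were called, and 591 with only the 12094 genes above background in the fit. These calls rest on 2 arrays a group. In HET cells, Trat1 passed without thymus KO 1 or thymus KO 2 and was lost without any of the other 6 arrays (adjusted p between 0.0586 and 0.293), and Lax1 was lost without thymus HET 2, spleen HET 1 or spleen HET 2 (between 0.0671 and 0.153). In KO cells, Trat1 was lost without thymus KO 2, spleen KO 1 or spleen KO 2 (between 0.0941 and 0.109) and Lax1 without spleen KO 1 (0.0617). Averaged over genotypes, both passed whichever array was left out. No interaction of genotype with tissue passed for any member, so that the size of these differences was not shown to depend on the genotype.

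Across the 8 arrays, Lax1 and Lrba had a Pearson correlation of 0.98, Trat1 and Lrba of 0.94 and Trat1 and Lax1 of 0.93. These values are descriptions, since the arrays fall into thymus and spleen and all 3 genes share that split. Correlations of Ctla4 with the 9 other members ran between -0.15 (Ap1m1) and 0.65 (Lrba). The 5 genes whose pattern over the 8 arrays was most like that of Ctla4, among 12093 above background, were Ttc37 (r = 0.96), Ndufaf5 (0.95), Tinagl1 (0.95), Ap4s1 (0.94) and Dgkh (0.94). These 5 were picked for the highest r of 12093 genes over only 8 arrays, and a link with Ctla4 was not tested. Ap4s1 encodes a subunit of the AP-4 adaptor complex. It measured 5.87 and 5.58 in thymus KO cells, 5.97 and 5.98 in thymus HET cells, 6.27 and 5.97 in spleen KO cells and 5.98 and 5.82 in spleen HET cells.

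**Figure D3:**
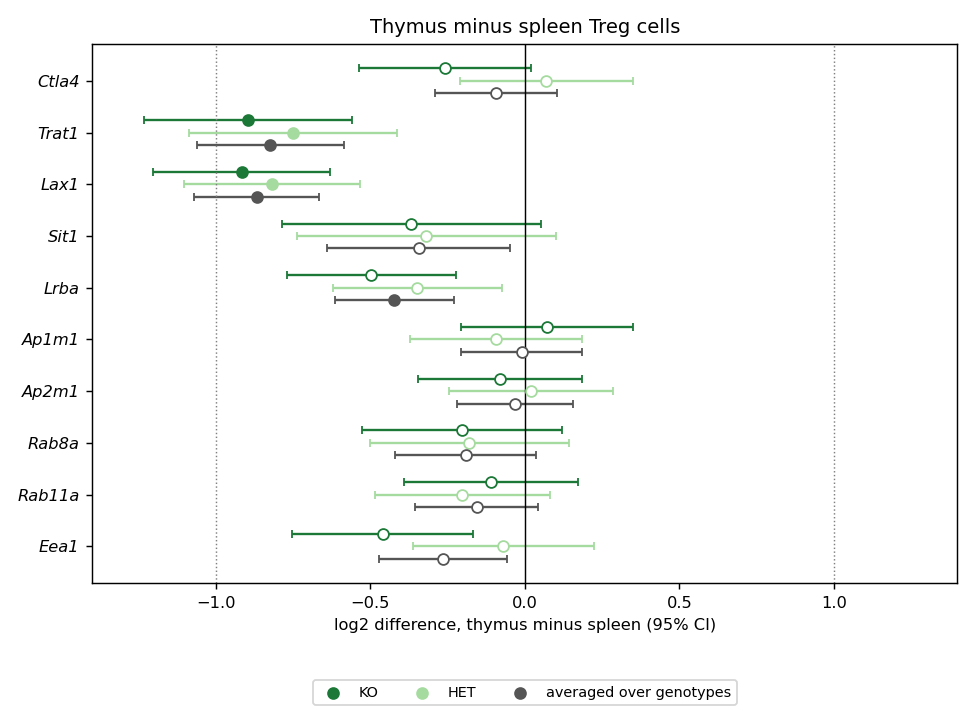
Log2 difference of thymus minus spleen (x axis) for the 10 genes, with 95% confidence intervals, in KO cells, in HET cells and averaged over genotypes. Filled points passed the threshold and dotted lines mark a 2-fold change. Lax1 and Trat1 are filled in all 3 rows and Lrba in the averaged row, at -0.87, -0.82 and -0.42.

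The other members did not pass between the organs. Sit1 (chr4:43482083-43483709), an adaptor that dampens T cell receptor signals, varied between pools in thymus, with 8.27 and 7.79 in KO cells and 8.33 and 7.88 in HET cells, against 8.25 and 8.53 in spleen KO cells and 8.50 and 8.35 in spleen HET cells. The averaged difference was -0.34 (CI -0.64 to -0.05; adjusted p = 0.171), and the organs overlapped. Replicate arrays of Sit1 lay up to 0.48 apart, the widest gap of the list, and in thymus it was the array numbered 2 that was lower in both genotypes. The same order held in thymus for Ctla4, Trat1, Lax1, Lrba, Ap1m1, Rab8a and Rab11a, but not for Ap2m1 and Eea1. The members called between the organs thus share this array pattern. The numbers join no mice across genotypes, and what the arrays numbered 2 have in common was not tested.

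Eea1 had an averaged thymus minus spleen difference of -0.27 (CI -0.47 to -0.06; adjusted p = 0.135). It was -0.46 in KO cells (CI -0.75 to -0.17; adjusted p = 0.123) and -0.07 in HET cells (CI -0.36 to 0.22; adjusted p = 0.890). Ctla4 itself averaged -0.09 (CI -0.29 to 0.10; adjusted p = 0.597), and the organs overlapped. Its interval lies above that of Lax1 and of Trat1, a comparison between genes that was not itself tested.

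The clathrin adaptors showed little movement. Ap2m1 (chr16:20535480-20544909), the AP-2 subunit that recognises the tyrosine motif in the tail of CTLA-4 at the plasma membrane, lay between 8.30 and 8.46 on all 8 arrays, a span of 0.16. Thymus minus spleen was -0.03 (CI -0.22 to 0.16) and KO minus HET -0.02 (CI -0.21 to 0.17), each averaged. Ap1m1 (chr8:72240013-72257386), the matching AP-1 subunit that serves transport between the Golgi and endosomes, lay between 8.23 and 8.54. Its differences were -0.01 for the organs (CI -0.21 to 0.19) and 0.07 for the genotypes (CI -0.13 to 0.27). As folds of KO over HET, averaged, the intervals ran between 0.868 and 1.13 for Ap2m1 and between 0.915 and 1.20 for Ap1m1.

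Rab8a (chr8:72161200-72181366), the GTPase of post-Golgi transport to the surface, measured 9.03 and 8.81 in thymus KO cells and 9.15 and 8.81 in thymus HET cells, against 9.19 and 9.06 in spleen KO cells and 9.21 and 9.11 in spleen HET cells. The averaged organ difference was -0.19 (CI -0.42 to 0.04; adjusted p = 0.327), with overlap. Rab8a alone had another probe set with 1 symbol. There, thymus KO cells gave 7.17 and 7.17, thymus HET cells 7.13 and 7.13, spleen KO cells 7.17 and 7.11 and spleen HET cells 7.29 and 7.35. The probe sets differ in pattern, since the dimmer one set spleen HET apart from the rest and the brighter one did not. Rab11a differed by -0.16 between the organs (CI -0.36 to 0.04; adjusted p = 0.362).

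A wider set of 71 genes of the same route, of which 67 were measured, was examined by step. None of the 67 was called by limma between KO and HET in thymus, in spleen or averaged, nor for the interaction. In that order, 1, 2, 3 and 1 had an unadjusted p under 0.05, against 5.52%, 4%, 5.53% and 3.67% of all genes. Between the organs 8 of 67 (11.9%) were called when averaged, 3 as higher and 5 as lower in thymus, beside the 5.43% of all genes, and the median over the 67 was -0.12. Within KO cells 1 of 67 was called, beside 1.72% of all genes, and within HET cells 0 of 67, beside 1.2%. At an unadjusted p under 0.05 there were 15 of 67 in KO cells, where 15.7% of all genes had one, and 12 of 67 in HET cells, where 11.7% of all genes had one. These shares describe the list only, and those of all genes include genes below background.

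Among the 12 measured clathrin coat and adaptor genes, 2 were lower in thymus, namely Ap1s1, the small subunit of AP-1 (-0.38; CI -0.58 to -0.18; adjusted p = 0.0333), and Cltb, clathrin light chain b (-0.43; CI -0.66 to -0.20; adjusted p = 0.0368). Ap1s1 measured 5.86 and 5.72 in thymus KO cells and 5.90 and 5.76 in thymus HET cells, against 6.16 and 6.22 in spleen KO cells and 6.11 and 6.27 in spleen HET cells, without overlap of the organs. None of the 9 early endosome genes passed. The smallest p there was that of Pik3c3, the kinase that makes the lipid to which EEA1 binds (adjusted p = 0.0811). In recycling and exocytic transport 1 of 13 passed, and in the opposite direction. Swap70, a guanine nucleotide exchange factor that acts on the actin cytoskeleton, was higher in thymus by 0.58 (CI 0.36 to 0.80; adjusted p = 0.00591). It measured 8.29 and 8.19 in thymus KO cells and 8.36 and 8.06 in thymus HET cells, against 7.56 and 7.78 in spleen KO cells and 7.63 and 7.59 in spleen HET cells.

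Lrba has relatives that share its BEACH domain. Of the 7 measured, 1 passed, namely Nbeal2, known for its part in forming platelet alpha granules, which was lower in thymus (-0.55; CI -0.77 to -0.34; adjusted p = 0.00764). It measured 7.27 and 6.90 in thymus KO cells and 7.24 and 7.32 in thymus HET cells, against 7.56 and 7.59 in spleen KO cells and 7.89 and 7.90 in spleen HET cells. The median of the relatives was 0.06, so the lower level of Lrba and Nbeal2 was not a feature of the whole list.

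Of the 14 late endosome and lysosome genes, 1 was lower and 1 higher in thymus, both of them cathepsins, the proteases of lysosomes. Ctsd differed by -0.73 (CI -1.05 to -0.41; adjusted p = 0.0143) and Ctsl by 0.39 (CI 0.18 to 0.61; adjusted p = 0.0382). Ctsd measured 8.44 and 7.76 in thymus KO cells and 8.54 and 8.10 in thymus HET cells, against 8.87 and 8.89 in spleen KO cells and 9.08 and 8.92 in spleen HET cells. As with Sit1, the thymus array numbered 2 was the lower one in both genotypes. None of the 5 Golgi genes and none of the 3 measured transmembrane adaptor relatives passed. Pag1, an adaptor that recruits the inhibitory kinase Csk, had the smallest p among the adaptors (-0.39; adjusted p = 0.0648).

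CTLA-4 competes with CD28 for CD80 and CD86, and Treg cells express those genes too. Cd80 was higher in thymus by 0.57 (CI 0.29 to 0.86; adjusted p = 0.0272) and Cd86 was lower (-0.49; CI -0.71 to -0.28; adjusted p = 0.0124). Cd80 measured 7.47 and 6.97 in thymus KO cells and 7.78 and 7.37 in thymus HET cells, against 6.88 and 6.77 in spleen KO cells and 6.94 and 6.70 in spleen HET cells. Cd86 measured 6.79 and 6.51 in thymus KO cells and 6.99 and 6.84 in thymus HET cells, against 7.34 and 7.24 in spleen KO cells and 7.24 and 7.29 in spleen HET cells, and it was also called within KO cells (-0.64; adjusted p = 0.0388). Cd28 did not pass (-0.31; adjusted p = 0.0701), nor did Icos (-0.11; adjusted p = 0.605). In thymus, KO minus HET was negative for all 4 of these genes, between -0.46 (Icos) and -0.16 (Cd28), and in spleen it lay between 0.00 and 0.05, but none passed in either organ.

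**Figure D4:**
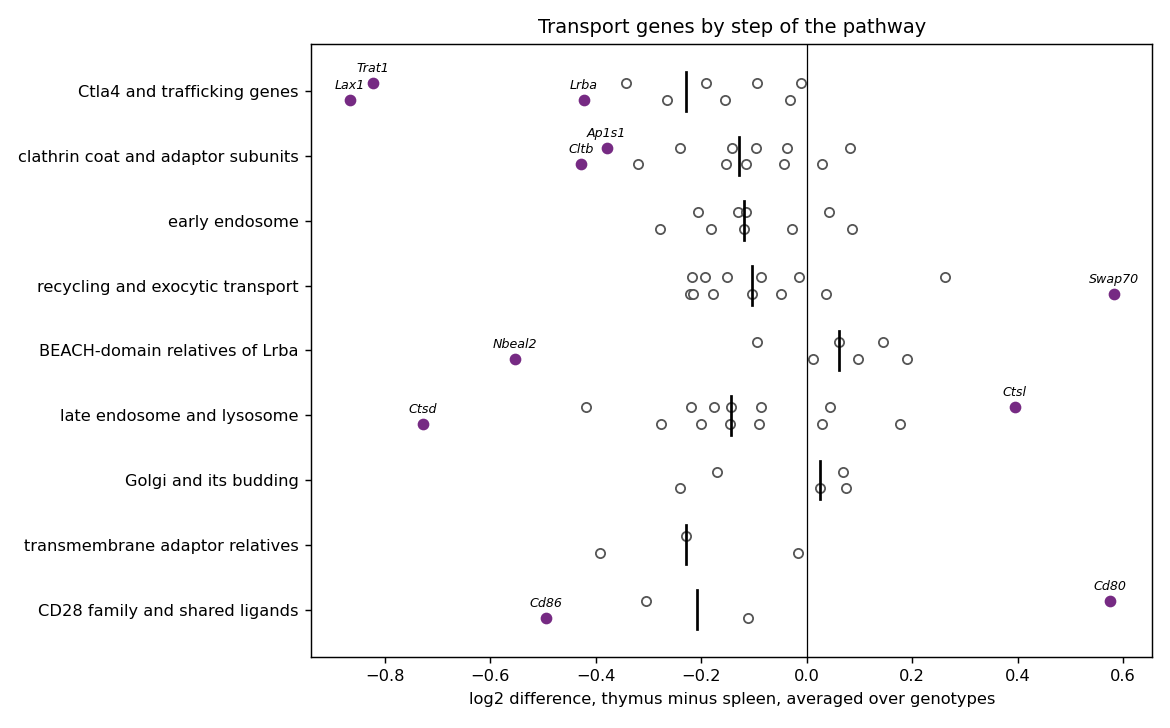
Log2 difference of thymus minus spleen, averaged over genotypes (x axis), for the 10 genes described here (top row) and for the other measured genes of the route by step. Filled, named points passed the threshold and vertical bars are the medians of a row. The 3 lowest points of the top row are Lax1, Trat1 and Lrba, and Swap70, Cd80 and Ctsl lie on the higher side.

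Some markers of other cells moved with the organ. Of 6 measured markers of double-positive thymocytes, 4 were above background on the thymus arrays and 3 on the spleen arrays, and their summed linear intensity was between 299 and 425 in thymus, against between 260 and 292 in spleen. Cd8a measured 6.22 and 5.27 in thymus KO cells and 4.39 and 4.57 in thymus HET cells, against 4.06 and 4.15 in spleen KO cells and 3.64 and 3.99 in spleen HET cells, which are below background in spleen and in thymus HET. Dntt was at 4.62 and 4.59 in thymus KO cells and 5.20 and 4.84 in thymus HET cells, against between 3.80 and 3.91 in spleen. Of 6 markers of cytotoxic and NK cells, 2 or 3 were above background on each array. The summed intensity was between 384 and 495 in thymus, against between 303 and 330 in spleen. Nkg7 was the brightest of the 6 and weighs most in that sum. Averaged over genotypes, thymus minus spleen was positive for 2 of the 6 markers and negative for 4, with a median of -0.06. Among them 1 was called, namely Nkg7, a protein of cytotoxic granules, which was higher in thymus (0.73; CI 0.46 to 1.00; adjusted p = 0.00527). It measured 8.58 and 7.99 in thymus KO cells and 8.20 and 8.31 in thymus HET cells, against between 7.48 and 7.65 on the 4 spleen arrays. No measured marker of B cells, myeloid cells, erythroid cells, naive conventional T cells or thymic stroma was called between the organs in the average. The part of double-positive, cytotoxic or NK cells in the lower Lax1, Trat1 and Lrba levels was not tested. Trat1 was 8.10 on the thymus KO array with the higher Cd8a and 7.70 on the other, and Lax1 was 7.67 and 7.63.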

How the data were processed

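The values, as deposited by the authors, are log2 intensities of 41345 probe sets. Their processing notes list the package oligo, and a version or summarisation function is not given in the sources used here. The methods name another array design than the one the probe set identifiers belong to, and the identifiers were followed. Nothing was normalized further. Probe sets with 1 symbol were kept (23521), and of several for a gene the one with the highest mean, which left 22180 genes. Loci and sequences are RefSeq's (GRCm38.p6), with upstream sequence for 9 of the 10 members and the first start listed per gene.

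All 8 arrays were fitted together in limma 3.58.1 (R 4.3.3), with 1 coefficient per group and 4 residual degrees of freedom, followed by eBayes. The 7 contrasts were two-sided, and p-values were adjusted by Benjamini-Hochberg over all genes, with a threshold of 0.05. The code was tested on simulated data. The labels name pools of mice but no separate experiments, so p-values measure the spread between arrays of a group. The main fit had no block for the pool. The averaged comparison of KO with HET therefore takes the thymus and spleen arrays of 1 pool as independent. Its p-values and intervals can understate the spread between pools. The number of arrays limits the precision.

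Thymus and spleen arrays of a genotype and number share a mouse pool. Their deviations from group means correlated at 0.00898 (KO) and 0.179 (HET) over 12094 genes. The members and lists were chosen with earlier results of these data known. Named genes were all members, list genes that passed (up to 4 per list and contrast) or else the 1 with the smallest p, the 5 most like Ctla4, and markers that moved with a result. Listed genes without a probe set of 1 symbol were not analysed here. Alternatives were a background filter, quantile normalization, eBayes with trend and robust, the mean of probe sets, the compared arrays only, blocks, and leaving out each array.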

Additional observations from a re-analysis of the deposited data

How the results depend on the processing

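The count of members called between KO and HET was 0 in spleen, in thymus, averaged and for the interaction under every alternative run, leaving out each array included (0 to 0). Averaged over genotypes, members called between thymus and spleen numbered 3, and 2 to 3 with an array left out. In HET and in KO cells they numbered 2, and 0 to 2 with an array left out. With only the HET arrays in the fit the count in HET cells was 1, since Trat1 missed (adjusted p = 0.0539). In KO cells Lrba passed with genes below background left out (adjusted p = 0.0384) and with trend and robust (0.0282). No called member changed sign. Of the differences that were not called, some changed sign in some alternatives (7 of 140 values in spleen, 7 in thymus and 10 averaged for KO against HET, 12 for the interaction), among them Eea1 in HET cells between the organs under quantile normalization (0.03). Over all genes, KO against HET averaged gave 5 calls, 11 with the filter, 1 with quantile normalization, 13 with trend and robust, 1 with the pool as a random replicate block, 7 with the replicate number as a block and 1 to 5 with an array left out. In thymus the 1 call became 3 with the replicate number as a block and 1 to 4 with an array left out, and in spleen it was 1 to 2. Thymus against spleen in KO cells gave 381 calls, 591 with the filter and 97 to 430 with an array left out, in HET cells 64 to 285 (266 with all), and averaged 518 to 1657 (1204 with all). The interaction gave 0 to 0. Under quantile normalization calls were higher in 54.6% in place of 43.3% for thymus against spleen in KO cells, 53.5% in place of 41.6% averaged, and for KO against HET averaged 100% (1 of 1 call) in place of 20% (1 of 5), the lower calls being lost. The pool as a block for the organ contrasts changed no call of a member. HET and KO arrays of 1 number share only that number, and their deviations correlated at 0.265 in thymus and -0.0784 in spleen. Fits with genes or arrays left out also held fewer of them, and the causes of these changes were not tested.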
